A study of Mus musculus with 11 samples.

Results

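H3K27me3, the trimethylation of lysine 27 of histone H3, is laid down by Polycomb repressive complex 2, whose catalytic subunits are EZH1 and EZH2, and marks genes that are kept silent. In embryonic tissue it is best known from the CpG-rich promoters of developmental transcription factors, and it also lies between genes, where the annotation offers no coding promoter to name it by. CUT&Tag maps the mark in nuclei with an antibody that tethers the Tn5 transposase to chromatin bearing it, so that the DNA beside the mark is cut and sequenced.

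The regions described here are the peaks of H3K27me3 that lay far from every protein-coding gene start and were present in all 4 regions of the embryonic mouse forebrain that were profiled. Of these regions 3 were ganglionic eminences, ventral swellings whose progenitors give rise to inhibitory neurons, namely the lateral (LGE), the medial (MGE) and the caudal (CGE) one. The other region was the cortex (CTX), whose progenitors give rise to excitatory neurons. All samples were wild-type C57BL/6J embryos with no treatment. The study places the CUT&Tag assays at embryonic day 12.5, on pooled embryos, and speaks of a pair of biological replicates a region. The protocol in the labels names days 12.5 and 14.5, and no label gives the age of a single sample. MGE has 2 samples and every other region 3, of which 2 bear replicate number 2 and may be one replicate sequenced again. The samples of each region had been merged into 1 peak list, so that no value below has a replicate or a test, and each is a description of these lists. A list sums over all cells of its region, so which cells carried the mark cannot be told apart.

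A member was chosen by 2 criteria on the peak lists and the mm10 (GRCm38) annotation. First, it was a peak of the LGE list on chromosomes 1 to 19 or X with at least 50% of its bases covered by each of the MGE, CGE and CTX lists. Second, it overlapped no protein-coding gene and lay more than 20 kb from any protein-coding 5′ end. Of the 16851 LGE peaks on these chromosomes, 1197 (7.10%) were members, covering 2.08 Mb. A further 2618 LGE peaks were as distal but not shared, and 7074 were shared but lay in or near protein-coding genes. Since peaks were selected on their presence in the lists, the heights and coverages given below describe the choice and are not findings about it. Against them stands the rest of the distal genome, read as 1230343 windows of 1 kb (1230 Mb, 46.7% of the assembly) that met the same distance criteria and held no unknown base.

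The members fell into sequence types that differ plainly when printed. Each line below gives 120 bases of the plus strand of the GRCm38 RefSeq assembly with every CpG in capitals, because CpG density is the sequence feature with which H3K27me3 is most often associated. The first 3 are the centres of members among the 10 with the highest LGE fold enrichment, named by their nearest gene, at chr5:101210402-101210521, chr5:63413063-63413182 and chr9:70988347-70988466.
Gpat3: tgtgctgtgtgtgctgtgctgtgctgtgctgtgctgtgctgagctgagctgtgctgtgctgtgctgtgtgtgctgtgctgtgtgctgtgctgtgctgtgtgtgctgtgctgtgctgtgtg
Nwd2: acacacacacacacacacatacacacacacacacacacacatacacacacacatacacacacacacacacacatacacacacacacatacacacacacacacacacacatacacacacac
Lipc: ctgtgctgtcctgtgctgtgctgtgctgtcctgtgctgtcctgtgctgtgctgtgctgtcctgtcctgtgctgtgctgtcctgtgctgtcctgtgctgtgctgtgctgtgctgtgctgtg
All 3 are tandem repeats of short units and hold no CpG in these stretches.

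The next 3 are the 120 bases with most CpGs in members that hold the 5′ end of a long noncoding RNA gene, at chr6:30174209-30174328 (the widest member), chr8:50916135-50916254 (the member farthest from any coding gene start) and chr14:64587085-64587204 (the member with Mir124a-1). They hold 17, 15 and 19 CpGs.
Rncr4: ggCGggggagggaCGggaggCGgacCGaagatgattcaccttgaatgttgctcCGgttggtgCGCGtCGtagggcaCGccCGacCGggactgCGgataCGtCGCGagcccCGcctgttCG
C130073E24Rik: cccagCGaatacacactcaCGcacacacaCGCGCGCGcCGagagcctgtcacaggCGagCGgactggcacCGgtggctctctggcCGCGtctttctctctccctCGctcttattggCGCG
Mir124a-1hg: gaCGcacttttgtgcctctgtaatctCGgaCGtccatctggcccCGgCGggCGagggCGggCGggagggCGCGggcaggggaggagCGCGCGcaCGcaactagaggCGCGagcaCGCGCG
Their CpG density follows from this choice of stretch and is shown as an illustration only.

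Members were mostly between these extremes. Their median CpG ratio, the number of CpGs over that expected from the C and G content, was 0.336, with quartiles of 0.242 and 0.430, against a median of 0.142 in the distal windows and 0.480 in the shared peaks near genes. Their median GC content was 51.1%, against 40.2% in the distal windows. A CpG-rich stretch, defined as 200 bases or more with at least 50% GC and a CpG ratio of at least 0.6, was present in the central 1 kb of 551 of the 1197 members (46.0%). The background was 3.74% of the distal windows, and the share was 17.6% of the distal peaks that were not shared and 75.4% of the shared peaks near genes. The shared distal peaks thus lay between the unshared distal peaks and the shared peaks near genes on this measure.

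The members were 285 to 9069 bases wide, with a median of 1513 bases, against 742 bases in the unshared distal peaks and 1962 bases in the shared peaks near genes. Only 12 members were 5 kb or wider and 96 were under 500 bases. The fold enrichment of a member over its local background in the LGE list ranged from 1.40 to 8.84 with a median of 3.18, and the −log10 q from 1.15 to 191 with a median of 7.63. In the same list the median −log10 q was 2.41 in the unshared distal peaks and 14.9 in the shared peaks near genes. Comparisons of members with these groups thus also set stronger against weaker peaks. The part of peak strength in them was not tested. The peaks that overlapped members most in the other lists had median folds of 3.07 in MGE, 3.00 in CGE and 2.92 in CTX. Median −log10 q was 4.83 in MGE, 11.6 in CGE, 8.05 in CTX and 7.63 in LGE. By the read numbers that the study states for its libraries, the summed depth of the regions rose in the same order, from MGE over LGE and CTX to CGE, and the part of depth in these values was not tested. Within its own list the median member stood at the percentile 64.6 of all peaks by −log10 q in LGE, 60.6 in MGE, 69.7 in CGE and 68.8 in CTX. In each list the typical member was thus of somewhat more than middling significance.

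Coverage by the other lists was lowest in MGE. The median member had 92.0% of its bases under MGE peaks, 100% under CGE peaks and 98.1% under CTX peaks. In all, 121 members were covered completely by each of the 3 other lists and 459 (38.3%) to at least 90%. MGE gave the lowest of the 3 coverages in 602 members, CTX in 340 and CGE in 116. The members nearest to the coverage limit had 50.1%, 50.2%, 50.5% and 50.6% of their bases under the least covering list (nearest genes Rybp, Atg4a-ps, Fermt2 and Sox14), and a member near Slc32a1 met the limit to within rounding. The distal peaks just below it had at least 49.7% and lay near Zfp637, Kcna10, Mgat5b, Dynlrb2 and Gm26897. At the distance limit, the nearest members lay 20023 bases from Prox1, 20025 from Zdbf2, 20096 from Foxe3, 20097 from Hoxc4 and 20106 from Zmym2. The shared peaks just too near lay 19776 bases from Xkr6, 19760 from Olfr1373, 19737 from Gpatch2l, 19708 from Hif1an and 19687 from Socs3.

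The 10 strongest members by fold had low CpG ratios, of 0 to 0.118. By −log10 q the order was different. A member near Commd3, picked out after its values were seen, reached 191 with a CpG-rich stretch and a CpG ratio of 0.482. Of the 10 members with the highest LGE fold, 9 were at least 90% repeat-masked in the reference, and these 9 were tandem repeats in which TG pairs, or CA pairs on the same strand, made up 66.9% to 90.4% of the bases. The highest was the Gpat3 stretch shown above (chr5:101210013-101210911), 364 kb from the start of Gpat3, which encodes an acyltransferase of triglyceride synthesis. Its fold was 8.84 in LGE, 7.78 in MGE, 7.49 in CGE and 7.78 in CTX, and it spanned 899, 899, 931 and 885 bases in these lists. The Nwd2 stretch followed (chr5:63412816-63413430) with folds of 8.70 in LGE, 7.69 in MGE, 8.34 in CGE and 6.87 in CTX. Both repeats were thus high in each of the 4 lists. Others of the 9 lay nearest to Dcbld2, Gas1, Calb2 (calretinin), Lipc (hepatic lipase), Fzd6 (a Wnt receptor), Has2 (hyaluronan synthase) and Ptprr, with LGE folds of 7.31 to 8.33. For Ptprr the fold was 3.61 in CTX against 5.82 in MGE, 6.13 in CGE and 7.31 in LGE, the widest gap among the 9.

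**Figure D1:**
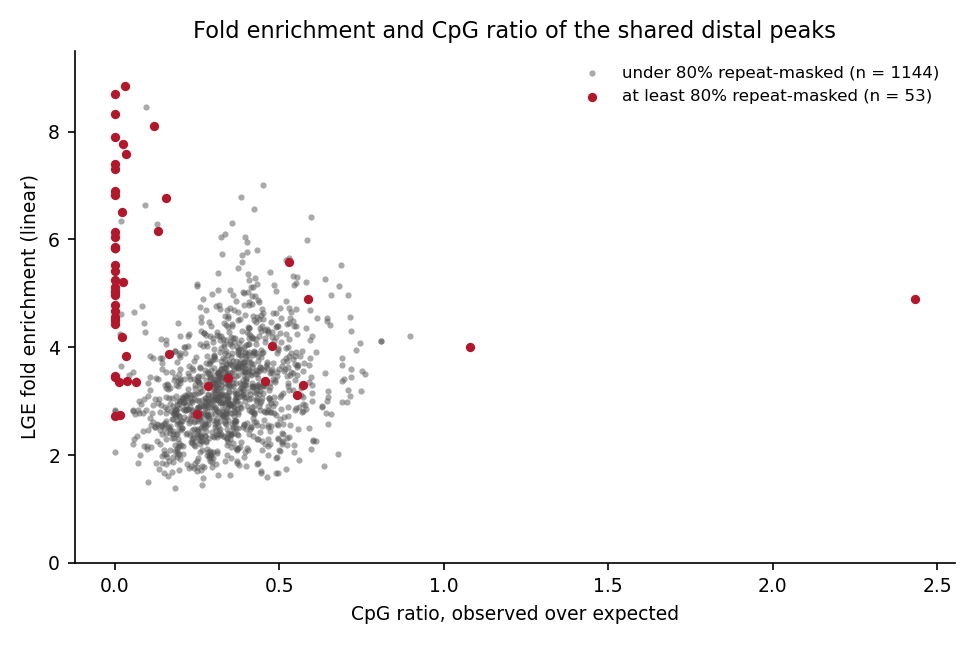
LGE fold enrichment (linear) of each of the 1197 members against its CpG ratio. The 53 members of which at least 80% is repeat-masked (red) make up 9 of the 10 highest folds, 32 of the 120 highest, and mostly sit at a CpG ratio near 0, and the other 1144 (grey) form a cloud around a ratio of 0.340 and a fold of 3.13. A single masked member has a ratio of 2.43.

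In all, 53 members (4.43%) were at least 80% repeat-masked, fewer than the background of 15.8% of the distal windows. Their median fold was 5.03 at a median width of 663 bases, against 3.13 at 1567 bases in the other 1144 members, and 32 of them were among the 120 members with the highest fold and none among the 120 with the lowest. TG or CA pairs made up over 50% of the bases in 43 members (3.59%), in 5.27% of the unshared distal peaks, in 0.707% of the shared peaks near genes and in 0.0167% of the distal windows. Such peaks were therefore not particular to the shared set. Reads from tandem repeats can be placed at several positions, and the part of read placement in these folds was not tested. Of the 53 masked members, 44 stood alone, with no other member within 100 kb, and 4 (7.55%) had a developmental transcription factor as nearest gene.

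The member among the top 10 that was not such a repeat lay 30.0 kb from Bcl2a1a (chr9:88926348-88926947), one of several near-identical genes of a BCL2-related family. Its fold was 8.46 in LGE, 5.49 in MGE, 6.07 in CGE and 4.85 in CTX. A sister member lay 31.1 kb from Bcl2a1b (chr9:89167481-89168100), and 63.2% of all 36-base words of the first also occurred in the second, so that reads of the copies may be shared and both values are uncertain. Among the members under 80% masked, the next by fold lay near Jarid2 (chr13:44673302-44674596), whose product is a cofactor of Polycomb repressive complex 2 and whose start lay 54.9 kb away. That peak had folds of 7.01 in LGE, 4.68 in MGE, 5.57 in CGE and 4.95 in CTX and a CpG ratio of 0.452. It was followed by members near Rpl38 (6.78 in LGE), Bcl2a1b (6.63) and Nufip1 (6.57). These members outside the top 10 were picked out after their values were seen.

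The widest members had low folds. The widest of all (chr6:30171447-30180515, 9069 bases) held the 5′ end of Rncr4, a retinal long noncoding RNA, and its fold was 1.74 in LGE, 1.68 in MGE, 1.63 in CGE and 1.63 in CTX. MGE covered 99.9% of it and the other lists all of it. One edge of it lay 1710 bases from the start of Mir183, 1896 from that of Mir96 and 5455 from that of Mir182, a group of microRNA genes known from sensory organs, and no list covered any base of the 3. Next came members 79.8 kb upstream of Pax2 (6853 bases, LGE fold 1.71), 23.8 kb upstream of Tbx5 (6675 bases, 1.66, with the 5′ end of 1700021F13Rik), 25.1 kb from Ccdc60 (6540 bases, 2.00) and 81.1 kb from Hsd17b12 (6439 bases, 1.99, with Mir129-2). The Ccdc60 member was unlike the other 4 in that MGE covered 58.2% and CGE 58.4% of it, against 100% by CTX.

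The median member lay 64.9 kb from the nearest protein-coding 5′ end, with quartiles of 35.7 and 142 kb, in a stretch between coding genes of median length 200 kb. In all, 469 members (39.2%) lay within 50 kb of such a start, 421 (35.2%) beyond 100 kb and 19 beyond 500 kb. Members lay upstream of the nearest start in 702 cases and downstream in 495. The rule left out peaks inside coding genes, which takes away positions downstream of a start. The same split was not computed for the distal windows, so these counts are not read as a result about members. The unshared distal peaks lay farther out, at a median of 96790 bases, and the distal windows at 178922 bases. Members were hence nearer to coding gene starts than the territory from which they came.

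The most remote member (chr8:50915261-50918127) lay 2071 kb from Tenm3, a teneurin adhesion protein of neural wiring, in a gap of 4668 kb without any coding gene. It held the 5′ end of the long noncoding RNA gene C130073E24Rik, whose CpG-rich sequence is shown above, and its fold was 5.33 in LGE, 3.98 in MGE, 3.27 in CGE and 3.49 in CTX. The second (chr5:60231216-60232019), 1577 kb from G6pd2, held the start of the processed pseudogene Cbfa2t2-ps1 and had folds of 3.28, 6.12, 4.65 and 4.01 in MGE, CGE, LGE and CTX. Another, 983 kb from Acvr2a (an activin receptor), was 357 bases wide and 95.2% repeat-masked, with an LGE −log10 q of 1.37. The others lay 855 kb from Adgrl2 (LGE fold 3.55) and 785 kb from Nr2f2 (3.59). The most remote member thus sat at the annotated start of a long noncoding RNA gene, and the second at the 5′ end of a pseudogene.

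Developmental transcription factors were the commonest class of nearest gene. They are the proteins that set regional and cell identity in the embryo and are the classic targets of Polycomb repression. A list of 399 such genes, 1.83% of the 21755 protein-coding genes, supplied the nearest gene of 273 members (22.8%), through 113 different genes. The list was made from prefixes of gene symbols and is not complete. Prox1, Snai1 and Klf4, for instance, are not on it and count among the other genes, so all shares below depend on this list. The background was 4.54% of the distal windows, and the share was 14.0% in the unshared distal peaks (366 of 2618) and 12.7% in the shared peaks near genes. Other classes were rare. Signalling ligands, receptors and antagonists were nearest to 23 members (1.92%, against 1.09% of windows), adhesion and axon guidance genes to 17 (1.42% against 7.03%), ion channels and neurotransmitter receptors to 18 (1.50% against 2.70%) and olfactory, vomeronasal and trace amine receptors to 4 (0.334% against 1.29%). Wnt7b led the signalling list with 4 members 31.7 to 61.7 kb away, followed by Bmp7 and Fzd10 with 3 each. In the unshared distal peaks the shares were 1.53% for signalling, 2.44% for adhesion, 1.83% for channel and 0.306% for olfactory genes. Adhesion genes, which often border gene deserts, were thus rarer beside both groups of distal peaks than in the territory. Their low share was not particular to members.

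**Figure D2:**
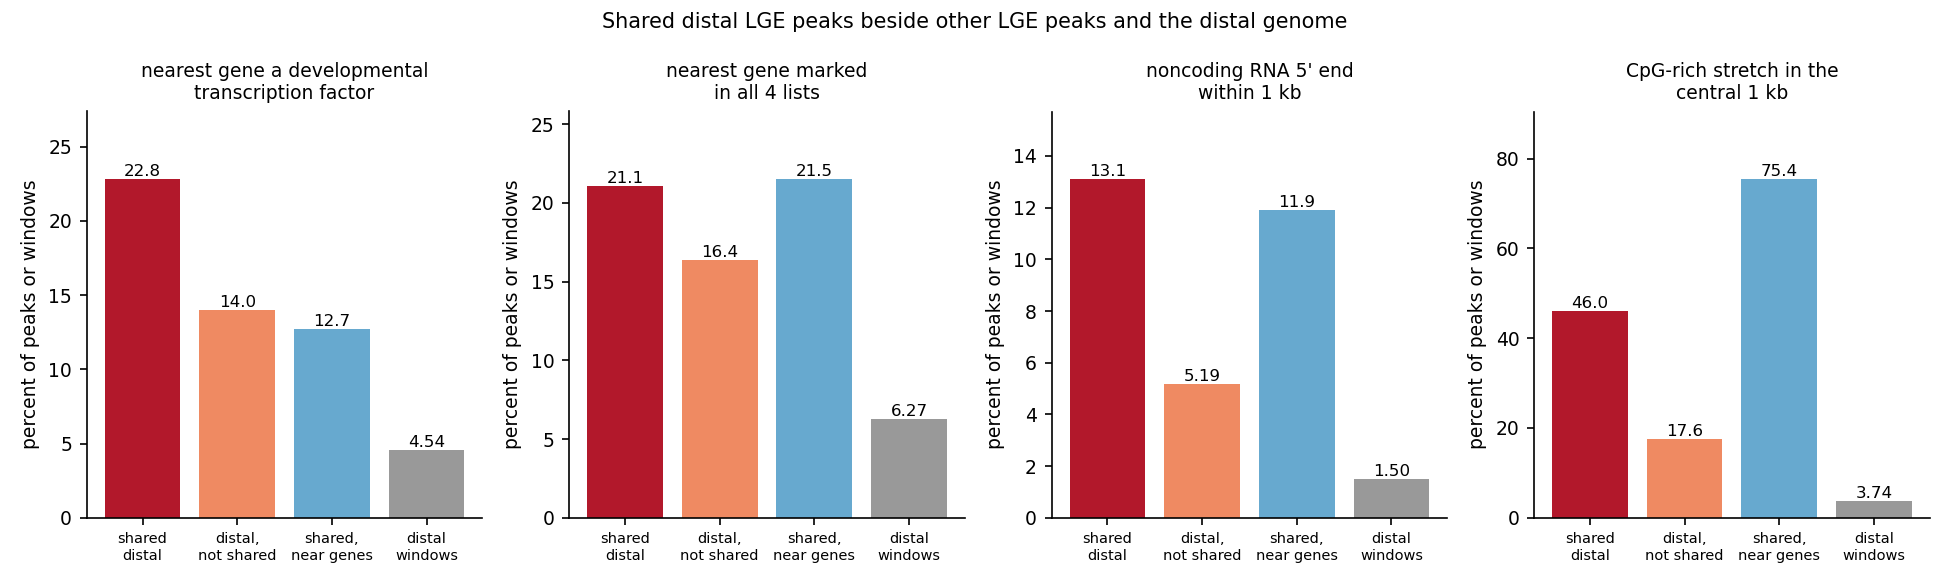
Percent of shared distal LGE peaks (n = 1197), unshared distal LGE peaks (n = 2618), shared LGE peaks near genes (n = 7074) and 1 kb windows of the distal genome with each of 4 features. Transcription factors as nearest gene are commonest in the shared distal peaks (22.8%), whereas CpG-rich stretches are commoner in the shared peaks near genes (75.4% against 46.0%).

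Nr2f2 (COUP-TFII), a nuclear receptor of caudal ganglionic eminence and its interneurons, was the nearest gene of 17 members, more than any other gene. They lay 22.7 to 785 kb from its start on chromosome 7, with LGE folds of 1.40 to 3.80 and widths of 514 to 4972 bases. Its own promoter, the 2 kb upstream of the 5′ end, was under peaks for all of its bases in MGE and for 54.5% to 55.2% of them in the other lists. Iroquois genes, homeobox genes of which 3 lie together on chromosome 8 and 3 on chromosome 13, were nearest to 25 members through 5 genes, with Irx3 at 9 and Irx2 at 7. Forkhead genes were nearest to 25 members through 11 genes, led by Foxb1 and Foxd3 with 6 each. Zic1, a zinc-finger factor, had 9 members and Otx2, a homeobox gene of the anterior brain, 8. Nkx6-1, a homeobox gene of ventral neural tube and pancreas, had 7, at 119 to 341 kb, and Nkx2-1, the selector gene of the MGE, had 4, at 24.7 to 77.2 kb. Lhx5, Tbx3 and Hes1 had 6 each, and Pax2, Meis1 and Sall3 had 5.

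**Figure D3:**
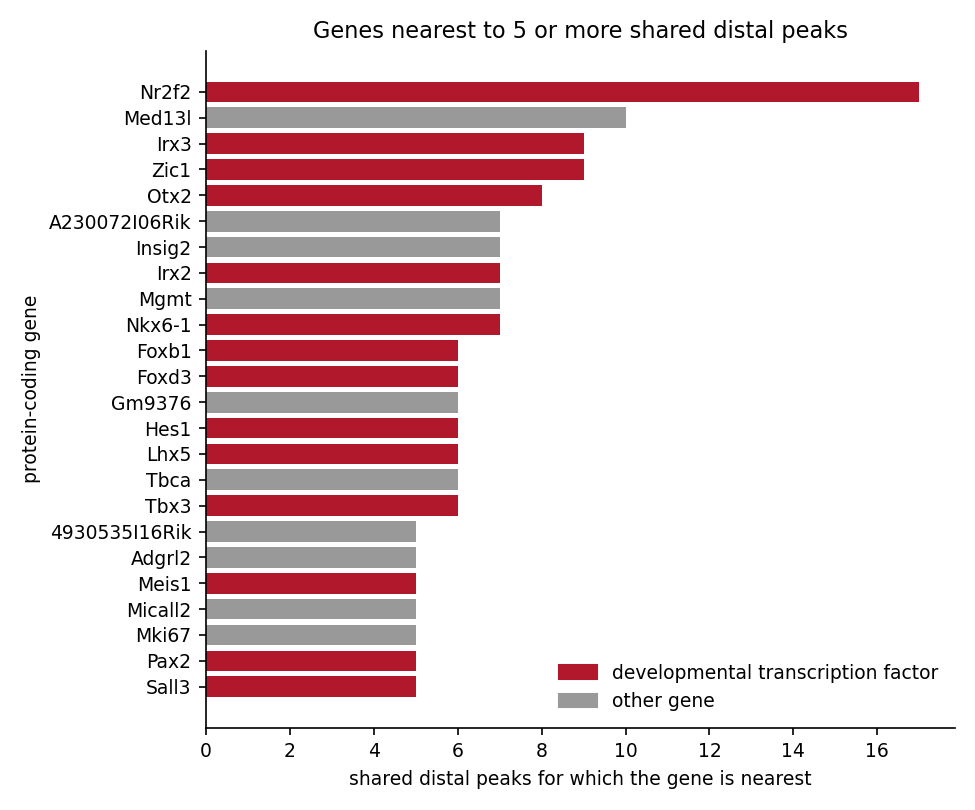
Number of shared distal peaks for which a protein-coding gene is nearest, for the genes with 5 or more. Developmental transcription factors are red and other genes grey. Nr2f2 has 17 peaks, Med13l 10, and Irx3 and Zic1 9 each.

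Of the 763 genes that were nearest to any member, 527 were nearest to 1 only and 47 to 4 or more, and these 47 accounted for 257 members. Of the 47, 23 were on the list of transcription factors. Several of the others are neighbours of such a gene. Med13l, a subunit of the Mediator kinase module, was nearest to 10 members at 45.1 to 525 kb and had none of its promoter under peaks in any list. Insig2, a regulator of sterol synthesis, was nearest to 7 members at 154 to 282 kb, in 1 cluster with a member nearest to En1. Micall2 was nearest to 5 members in 1 cluster with 4 members nearest to Uncx. Of the remaining genes outside the list, Mgmt (7 members) and Mki67 (5, with LGE folds of up to 5.58) lie on chromosome 7, and Tbca and Gm9376 had 6 each. Bcor, whose product is a cofactor of Polycomb repressive complex 1, was nearest to 4 members on the X chromosome at 126 to 353 kb, with LGE folds of 2.26 to 3.94. Rasgrf1, an imprinted gene, had 4 members at 23.2 to 38.4 kb and all of its promoter under peaks in every list. The nearest gene is only a name for a place, and these lists do not tell which gene, if any, a distal peak belongs to.

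The promoter of the nearest gene was often marked as well. A promoter was called marked when at least 50% of its 2 kb was under peaks in each of the 4 lists, which held for 4.72% of protein-coding genes. It held for the nearest gene of 252 members (21.1%), against a background of 6.27% of the distal windows, 16.4% of the unshared distal peaks and 21.5% of the shared peaks near genes. Because the same lists chose the members, this is a description of how the mark was distributed. Among the 273 members nearest to a transcription factor, the promoter was marked for 150 (54.9%), and among the others for 102 (11.0%). These shares count members, so that Nr2f2 enters 17 times. The share of marked promoters over all 399 genes of the list was not computed. Whether the genes beside members differ from the list as a whole therefore cannot be told. Irx3, Foxd3, Lhx5, Tbx3, Nkx6-1, Dbx1 and Nkx2-1 had all of the 2 kb under peaks in every list. Zic1, Meis1 and Sp8 did not, with at most 4.05%, 10.8% and 16.5% in any list, although they were nearest to 9, 5 and 4 members. For Zic1 and Hes1, members thus lay beside a promoter that was little covered, at most 33.7% for Hes1. The Nkx2-1 promoter was fully covered in MGE too, although the study describes this gene as restricted to MGE. Coverage counts bases under a peak and gives neither the height of the mark nor the cells that carry it.

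Some members came in groups. Joining members with at most 100 kb between them gave 545 single members, 135 pairs and 86 clusters of 3 or more, and the clusters of 3 or more held 382 members (31.9%). The same rule put 49.6% of the unshared distal peaks and 52.7% of the shared peaks near genes in clusters. Both groups were also more numerous, so the shares cannot be set against each other directly. Grouping was thus not particular to members. Within the clusters of 3 or more, the nearest gene was a developmental transcription factor for 153 of 382 members (40.1%), against 120 of the 815 outside them (14.7%). Its promoter was marked for 124 (32.5%) inside and 128 (15.7%) outside. Members in clusters thus carried most of the transcription factor neighbours, and 39 of the 86 clusters had at least 1 such member.

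The densest of the 5 largest clusters was at Zic1. It comprised 9 members within 32.7 kb (chr9:91389684-91422423), 23.9 to 56.2 kb from the start of the gene. Their LGE folds ran from 1.73 to 2.39 and their widths from 411 to 2474 bases. The −log10 q along the cluster was 12.7, 22.4, 25.1, 29.1, 12.7, 10.2, 4.68, 8.50 and 1.84 from the gene outward. In the same order the folds were 1.73, 1.95, 2.06, 2.16, 1.80, 2.16, 2.02, 2.39 and 1.94. The 3 most significant members were thus in the inner part of the cluster, whereas by fold the lowest was the one nearest to the gene.

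The Irx2 and Irx1 cluster (chr13:72289007-72364132) held 9 members in 75.1 kb, between the starts of both genes. It lay 265 to 331 kb from the nearest start, farther than any other of the 5. Of these members 6 were nearer to Irx2 and 3 to Irx1. They ran from 420 to 4302 bases in width and from 1.49 to 2.66 in fold, and at least 58.6% of each was under every other list. The promoter of Irx2 was covered to between 63.2% and 68.1% in the 4 lists, and that of Irx1 to 100% in MGE and CGE, 43.4% in LGE and 39.9% in CTX.

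The cluster around Hes1, a target and effector of Notch signalling (chr16:29906838-30236440), held 9 members over 330 kb on both sides of the gene. Its most significant member was 4117 bases wide (fold 2.14, −log10 q 25.5) and its strongest by fold (4.19) held the start of the long noncoding RNA gene 4632428C04Rik. CGE covered all 9 completely. CTX covered 64.5% to 100% of them and MGE 53.8% to 100%.

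The Uncx cluster (chr5:139509689-139687397) held 10 members over 178 kb, 5 nearest to Micall2, 4 to Uncx (a homeobox gene) and 1 to Zfand2a. Its folds reached 4.39, at a member 55.8 kb from Uncx. The promoter of Uncx was covered completely in CGE and CTX and to 29.1% in MGE and 31.2% in LGE.

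The largest cluster (chr8:12102859-12549046, 446 kb) held 11 members around Sox1, a transcription factor of neural progenitors. By distance, 7 of them were nearest to the gene A230072I06Rik, 3 to Spaca7 and 1 to Sox1 itself. Its most significant member (−log10 q 54.3, fold 2.74) was 98.9% repeat-masked, and the next had a −log10 q of 15.0. The other 10 were at most 31.8% masked. The promoter of Sox1 was covered to between 0 and 24.2%.

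**Figure D4:**
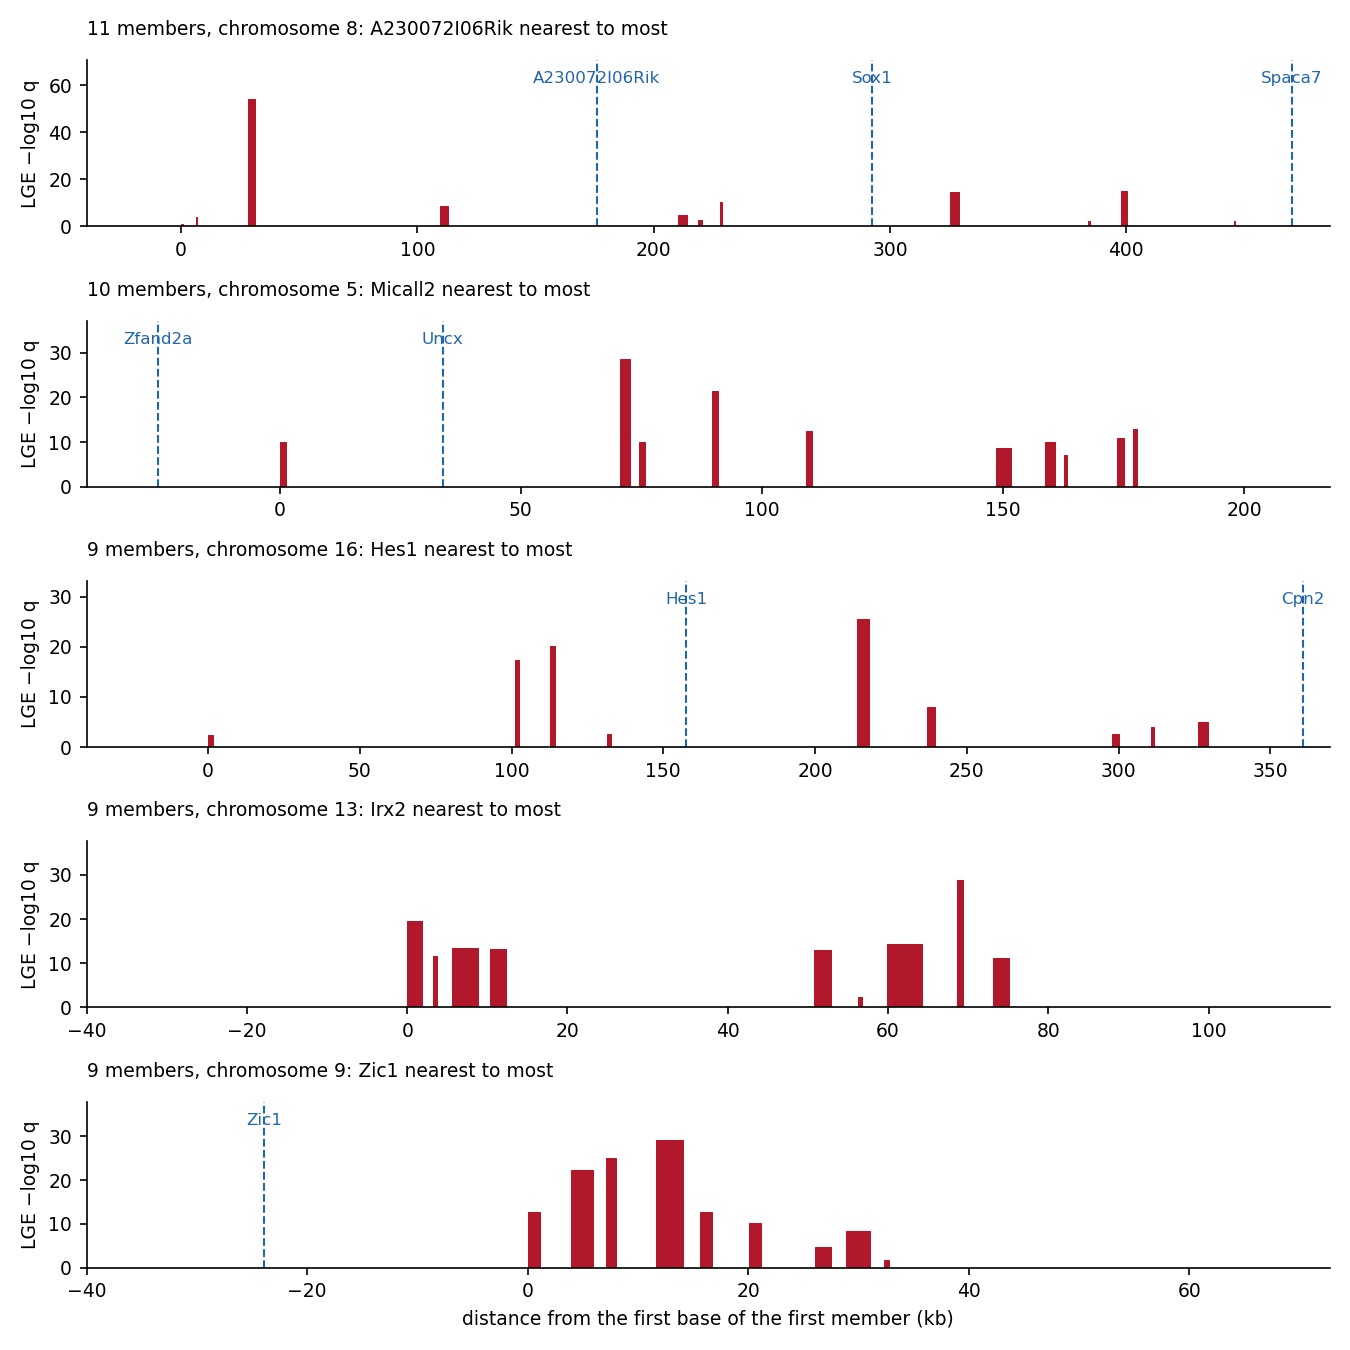
The 5 clusters with most members, 1 panel each. Each red bar is a member, drawn to its width at its LGE −log10 q against the distance in kb from the first base of the cluster, and dashed blue lines mark the 5′ ends of nearest genes that fall in the panel. The starts of Hes1 and Sox1 lie inside their clusters, and that of Zic1 lies to one side.

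Clusters of 7 or more members numbered 14. The other 9 lay beside Insig2 and En1 (8 members), Lhx5 and Rbm19 (8), Med13l (7), Tbx3 and Tbx5 (7), Foxb1 (7), Irx3 and Irx5 (7), Otx2 (7), Pax2 and Hif1an (7) and Dbx1 and Htatip2 (7). Of these, 8 had a transcription factor of the list among their nearest genes, and the exception was Med13l. Chromosome 5 carried the most members, 114, or 17.4 per 10 Mb of distal sequence, followed in density by chromosome 19 with 17.0. The X chromosome had the lowest density, 2.99 per 10 Mb, against 9.73 over all chromosomes.

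Noncoding RNA genes were frequent at the members. Noncoding genes did not enter the distance rule, so a distal peak may sit on the start of one. A 5′ end of a long noncoding RNA gene, of the kinds lincRNA, antisense or processed transcript, lay inside 104 members (8.69%), which together held 112 such starts. The background was 0.333% of the distal windows, and the share was 1.99% of the unshared distal peaks and 8.07% of the shared peaks near genes. Since members are wider than windows, density is the fairer figure: 53.8 starts per Mb in members, 18.5 in unshared distal peaks, 38.0 in shared peaks near genes and 3.39 in the distal windows. With microRNA and other small RNA genes included, 157 members (13.1%) had a noncoding 5′ end inside or within 1 kb. The share was 1.50% of the windows, 5.19% of the unshared distal peaks and 11.9% of the shared peaks near genes. The members with a long noncoding start inside were wider, at a median of 2154 against 1474 bases, and 69 of them (66.3%) had a CpG-rich stretch, against 44.1% of the other members. Pseudogene starts lay in 24 members, or 11.5 per Mb against 5.88 per Mb in the distal windows.

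The 10 widest members with a long noncoding start held, besides Rncr4, 1700021F13Rik and Mir124a-1hg, the genes 4930557F10Rik and 4930586N03Rik (5362 bases, near Zfp322a), Gm9916 (5317 bases, near Dpyd), Gm49319 and 4933425B07Rik (4840 bases, near Cdkn3), Gm45332 (4780 bases, near Irx5), Gm49539 (4709 bases, near Wnt7b), 2210408F21Rik and Lncpint (4635 bases, near Mkln1) and Gm36325 (4475 bases, near Irx3). Lncpint is a p53-induced RNA that binds Polycomb repressive complex 2. Its member (chr6:31216558-31221192) had a −log10 q of 60.5 in LGE, 21.4 in MGE, 53.8 in CGE and 41.6 in CTX, the highest of the 10 in LGE, and a CpG ratio of 0.572. Of the starts in narrower members, those of Pvt1 (50.8 kb from Myc, LGE fold 4.64), Mir155hg (30.7 kb from Mrpl39, 3.19) and Nkx2-2os (annotated as a miscellaneous RNA, 53.9 kb from Pax1, 2.96) were picked out after their values were seen.

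A microRNA gene start lay inside 0.668% of the members, against 0.115% of the unshared distal peaks and 0.792% of the shared peaks near genes. The distal windows, which are narrower than most members, gave 0.0485%. In all, 8 members held 11 such genes. They include microRNAs known for their part in neurons. Mir124a-1 makes the most abundant microRNA of the brain, Mir137 is linked to neuronal maturation, and Mir129-2 to neuronal excitability. The mature sequences from RefSeq (GRCm38), found for 6 of the 11 genes by symbol, are printed with the seed, bases 2 to 8, in capitals, since the seed is what pairs with target messengers.
mmu-miR-137-3p: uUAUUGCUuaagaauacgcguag
mmu-miR-137-5p: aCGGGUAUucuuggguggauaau
mmu-miR-129-5p: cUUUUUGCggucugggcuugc
mmu-miR-129-2-3p: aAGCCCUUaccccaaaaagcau
mmu-miR-129b-5p: gCUUUUUGggguaagggcuucc
mmu-miR-129b-3p: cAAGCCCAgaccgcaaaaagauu
mmu-miR-148a-3p: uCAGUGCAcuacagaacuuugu
mmu-miR-148a-5p: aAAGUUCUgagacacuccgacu
mmu-miR-193a-3p: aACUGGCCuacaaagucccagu
mmu-miR-193b-3p: aACUGGCCcacaaagucccgcu
mmu-miR-193a-5p: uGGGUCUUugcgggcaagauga
mmu-miR-193b-5p: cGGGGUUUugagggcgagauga
Of these 12 seeds 1 was shared, ACUGGCC of miR-193a-3p and miR-193b-3p, whose genes lie in different members on chromosomes 11 and 16. Mir129-2 and Mir129b are annotated on opposite strands of one place on chromosome 2.

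Both members of the miR-193 family ranked high by −log10 q in every list, although their folds lay below the median member's. The Mir193a member (chr11:79710226-79713727, 119 kb from Rab11fip4) had folds of 3.00 in LGE, 2.74 in MGE, 2.57 in CGE and 2.86 in CTX and ranked between the percentiles 86.3 and 90.6 of each list by −log10 q. The Mir193b member (chr16:13446360-13450265, 190 kb from Mrtfb) had folds of 2.58, 2.78, 2.39 and 2.34 in the same order and ranked between 84.1 and 90.5. The Mir129-2 member (chr2:94239074-94245512) ranked between 81.4 and 82.6 and the Mir124a-1 member (chr14:64585026-64591253, with Mir3078 and the host gene Mir124a-1hg) between 76.7 and 86.6. These 4 held much the same rank in the 4 regions.

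The other microRNA members differed more between lists. The Mir137 member (chr3:118430328-118435644, 126 kb from Dpyd, with the start of the long noncoding RNA gene Gm9916) had a −log10 q of 6.35 in LGE, 2.18 in MGE, 5.03 in CGE and 18.2 in CTX, or percentiles of 60.6, 31.4, 52.3 and 81.3 in the same order, whereas its folds of 2.53, 2.45, 2.54 and 2.30 lay closer together. The Mir148a member (chr6:51269856-51271069, 162 kb from Nfe2l3) stood at the percentile 82.0 in CGE, 56.5 in LGE, 49.4 in MGE and 31.3 in CTX, and it contained the 5p but not the 3p arm of the microRNA. The remaining members held the predicted genes Gm23154 (near Slc24a2) and Gm27852 (near Defb7). With 1 list a region, whether these differences exceed the spread between samples could not be tested.

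**Figure D5:**
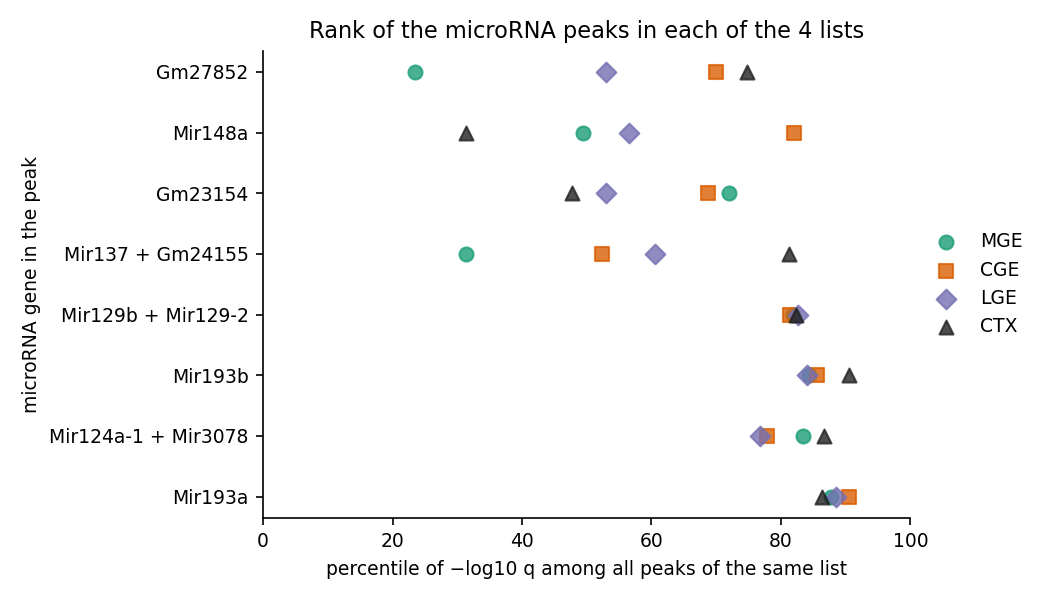
Percentile of the −log10 q of the overlapping peak among all peaks of the same list, for the 8 members with a microRNA gene (rows) in MGE, CGE, LGE and CTX. The members of Mir193a, Mir193b, Mir129-2 and Mir124a-1 sit above 76 in every list, and those of Mir137, Mir148a and Gm27852 spread over 40 points or more.

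Some members, picked out after their values were seen, ranked very differently in cortex although they met the coverage limit there. A member 34.7 kb from Slc2a1, the glucose transporter GLUT1 (chr4:119071399-119074053), had a −log10 q of 12.4 in MGE, 26.0 in CGE and 6.91 in LGE but 1.01 in CTX. Its folds were closer together, at 3.30, 3.02, 2.87 and 2.42 in the same order, and the CTX peak was 1621 bases wide against 2655 to 2783 in the eminences. One 20.8 kb from Ccne1 (cyclin E1) had 14.2, 48.0 and 22.8 in the eminences and 2.06 in CTX, with folds of 4.02, 4.19, 4.20 and 2.46. In the other direction, a member 22.5 kb from Sox21, a transcription factor of neural progenitors (chr14:118213592-118214579), had 2.22, 2.15 and 1.66 in MGE, CGE and LGE and 22.0 in CTX. Its folds were 3.08, 2.45, 2.73 and 2.50, and the peak that covered it was 3748 bases wide in CTX against 761 to 988 bases in the eminences. A member 54.8 kb from Dlk1, an imprinted Notch ligand homologue, likewise had a −log10 q of 22.2 in CTX and at most 3.76 in the eminences. Its folds were 2.66, 2.68, 2.75 and 2.55 in MGE, CGE, LGE and CTX. The peak that covered it was 2996 bases wide in CTX against 1814 to 2094 bases in the eminences. In the Sox21 and Dlk1 cases the CTX peak was thus wider and not higher.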

How the data were processed

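H3K27me3 CUT&Tag was carried out on nuclei of 11 samples, grouped by the region in their labels. Per the labels and methods, the authors aligned reads to GRCm38 (mm10) with Bowtie2, removed blacklisted and duplicate reads (Picard), merged the samples of a region with SAMtools and called broad peaks with MACS. MACS version and control are not given in the sources used here. For every peak the deposited lists hold a fold enrichment, which is the ratio of its signal to local background, the −log10 of its q-value and of its p-value, and a score. The score and p-value were not used. Reads per peak were not analysed here. The study states the reads of each library, by which MGE was the shallowest region and CGE the deepest. The labels name 1 region a sample but also speak of pooling equal numbers of nuclei from the regions.

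Members were found with numpy 2.4.6 and pandas 2.3.3 under Python 3.11.15, using GENCODE M21 genes and the RefSeq sequence of GRCm38, in which lower case marks repeats. Coordinates count from 1. Interval functions were checked on simulated intervals. No test was run, since each region has 1 list. The members and gene lists were chosen with earlier results of these data known, and list patterns were narrowed once to drop unrelated symbols. Named members were the 10 highest by fold, the 5 widest, the 5 farthest from a coding start, the 5 on each side of both limits, those with a microRNA gene, the 10 widest with a long noncoding RNA start and those of the 5 largest clusters. Named genes were their nearest genes, those nearest to 4 or more members and the leading genes of each list. Other names were added after values were seen. Alternatives are listed in the closing section, and those without repeat-masked members were added after seeing the data.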

Additional observations from a re-analysis of the deposited data

How the results depend on the processing

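The number of members, 1197, was most sensitive to the strictness of the rule: 695 with at least 80% coverage, 728 beyond 50 kb and 710 with a q-value under 0.001 in every list, all of them among the 1197. It was between 1025 and 1579 under the other 8 alternatives (any overlap, 10 kb, each other list as anchor, joined peaks, every transcript start, autosomes alone). The share of members in clusters of 3 or more was 31.9%, 24.6% at a gap of 50 kb and 45.8% at 250 kb. The share at a noncoding RNA gene was 13.1%, 9.52% with the 5′ end in the peak and 20.5% within 5 kb. The share with a marked nearest promoter was 21.1%, and 41.4% when any 1 covered base counted, where the distal windows gave 22.0%. The median CpG ratio was 0.336, and 0.348 in the central 1 kb. The median fold was 3.18, and 3.44 with a q-value under 0.001. Taking the nearest gene by any base of the gene gave 20.7% for transcription factors (22.8% by 5′ end) and 19.3% for marked promoters. Leaving out the members of at least 80% repeat gave 32.0% in clusters, 13.6% at noncoding genes, 21.8% marked, 23.5% transcription factors, a CpG ratio of 0.340 and a fold of 3.13.

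No paired analysis was possible because the samples of each region had been merged into 1 list, so the replicate numbers in the labels mark no column and no result comes from a test. For the same reason no run without single samples exists. The regions differ in the reads that the study states for their libraries (fewest in MGE, most in CGE), and the part of depth was not tested.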
